A study of Mus musculus with 9 samples.

Results

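The 10 genes described here are targets of the transcription factor p53 that act in cell death: Bax, Bbc3, Pmaip1, Fas, Tnfrsf10b, Perp, Apaf1, Aen, Pidd1 and Zmat3. They were taken as a list, matched by symbol to Ensembl identifiers, and all 10 were found among the 57010 genes of the count table. RNA came from the cortex of single mouse embryos at E12.5, with 3 controls (Ctrl, labelled WT), 3 Cnot3 cKO embryos and 3 Cnot3;Trp53 dcKO embryos. Cnot3 encodes a core subunit of the CCR4-NOT deadenylase, which shortens the poly(A) tails of mRNAs. The cKO embryos carry Emx1-Cre with Cnot3 lox/lox, and the dcKO embryos carry Emx1-Cre with both Trp53 lox/lox and Cnot3 lox/lox. Emx1-Cre acts in radial glial cells of the dorsal telencephalon and in their progeny, so the vessels, blood, meninges and microglia of a dissected cortex keep both genes. The sources used here do not say which floxed or Cre alleles the controls carry. The dcKO embryos bear on how far the response to loss of Cnot3 depends on p53.

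p53 kills cells mainly by raising the transcription of proteins that open mitochondria or that make death receptors available at the cell surface. Bax forms pores in the outer mitochondrial membrane, and the BH3-only proteins encoded by Bbc3 (PUMA) and Pmaip1 (NOXA) bind and block the pro-survival BCL2 proteins that restrain it. Cytochrome c that leaves the mitochondria joins the product of Apaf1 in the apoptosome, which activates caspase-9. Fas and Tnfrsf10b (the TRAIL receptor) recruit caspase-8 through an adaptor, Pidd1 scaffolds the activation of caspase-2, Perp encodes a tetraspan membrane protein, Aen a nuclease, and Zmat3 an RNA-binding zinc finger protein. In the embryonic cortex, neural progenitors are known to die through this pathway when p53 is stabilized.

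Counted reads per library ranged from 21193798 to 28869816 in Ctrl, 24835674 to 25946075 in cKO and 23275370 to 45073349 in dcKO. Levels are given as CPM, read counts scaled to library size with TMM factors. Cnot3 was at 107 ± 9.54 CPM in Ctrl (SD, n = 3) and at 14.6 to 17.3 in cKO. In dcKO it was at 7.33, 48.2 and 19.0 CPM in replicates 1, 2 and 3. Trp53 was at 15.1, 110.4 and 20.6 CPM in the same embryos, against 215 to 254 in Ctrl and 164 to 167 in cKO, so the library labelled dcKO replicate 2 kept 46.9% of the control mean. That library also held 96 reads of Gsx2 and 18 of Nkx2-1, markers of the subpallium that had 0 reads in the other 8 embryos. Of the 7 subpallium markers, Dlx1, Dlx2 and Gad2 were also highest there, at 47, 88 and 80 reads. Dlx5 had 1 read there, and Lhx6 was at 0.690 CPM, below the 0.843 to 4.46 CPM of every other embryo. The 7 summed to 9.12 CPM in that library and to 2.17 and 1.78 in dcKO replicates 1 and 3. Their sum was 1.09 to 1.51 in Ctrl and 2.07 to 4.54 in cKO. All 8 markers of the dorsal telencephalon had more than 10 reads in every embryo. Their summed level was 1384 to 2061 CPM in Ctrl, lower in every cKO embryo at 1186 to 1295, and 1302 to 1941 in dcKO. DESeq2 called Emx1 (log2 fold change -1.85, SE 0.71) and Lhx2 (-1.19, SE 0.27) lower in cKO, with edgeR adjusted p of 0.130 and 0.0514 for these values. Of the other markers tested, DESeq2 called Hes5 of radial glia lower in cKO (edgeR log2 fold change -1.83), and Rspo2, Lmx1a and Epcam higher. For dcKO against Ctrl it called markers of choroid plexus and hem and of surface epithelium higher, and markers of blood, endothelium and mesenchyme lower. Against cKO it called markers of blood and endothelium lower in dcKO. Libraries also differed by base composition. With genes in 5 equal groups by the G+C content of their exons, the median log2 ratio to the control mean in the richest group minus that in the poorest was between -0.31 and 0.19 in Ctrl and between -0.82 and -0.49 in cKO. In dcKO it was -1.77 and -2.13 in replicates 1 and 2, and 0.28 in replicate 3. Markers of other tissue also differed in summed level. The summed level of the 5 choroid plexus and hem markers was 68.7 to 92.8 CPM in Ctrl, 97.1 to 306 in cKO and 118 to 351 in dcKO (Ttr had 0 reads in Ctrl), and that of the 7 mesenchyme and meninges markers was 816 to 898, 477 to 731 and 340.1 to 544 in the same order. The 6 endothelium markers summed to 201 to 273, 199 to 283 and 129 to 149 CPM, and the 7 blood markers to 7292 to 11113, 9085 to 13997 and 4486 to 6387 CPM. Their part in the levels below was not tested. In such bulk samples, fewer cells of a type and less RNA per cell cannot be told apart.

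In cKO cortices, Pmaip1, Fas, Tnfrsf10b, Perp, Apaf1 and Zmat3 were each higher in every cKO embryo than in every Ctrl embryo. These are 6 of the 10 members, while 19% of all genes with a read were separated in this direction. Pidd1 was lower in every cKO embryo (16.4% of genes with a read), and Bax, Bbc3 and Aen overlapped between the genotypes. In dcKO, Pmaip1, Fas, Tnfrsf10b, Aen and Zmat3 were lower in every embryo than in every cKO embryo, 5 of the 10 members against 3.52% of genes with a read, and no member was higher in every one (2.09%). Both comparisons use the same cKO embryos. Against Ctrl, no member was higher in every dcKO embryo (9.56% of genes with a read), and Aen was lower in each of them (7.62%). For each member without overlap the exact permutation p was 0.1 (two-sided), which is also the smallest p that groups of 3 allow. The counts were next taken with single embryos left out, a check chosen after the values were seen. Leaving out an embryo can only add separated members. Between cKO and Ctrl, Bax joined Pidd1 among the lower members without cKO replicate 2 (19.4% of genes) and Aen joined the higher ones without cKO replicate 3 (23.2%). Between dcKO and cKO, Perp joined the lower members without cKO replicate 3 (6.99%) or dcKO replicate 1 (8%), and Apaf1 without dcKO replicate 2 (5.82%), which made 6 each time. Without dcKO replicate 3, 8 members were lower (17.1%). In dcKO against Ctrl, 3 were lower without Ctrl replicate 3 (Bax, Aen and Pidd1, 11.7% of genes), 2 without dcKO replicate 1 (Pmaip1 and Aen, 9.55%), 2 without dcKO replicate 2 (Aen and Zmat3, 13.5%) and 4 without dcKO replicate 3 (Bax, Bbc3, Aen and Pidd1, 19.3%). Perp and Apaf1 were higher than in every control without dcKO replicate 3 (19.7%).

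**Figure D1:**
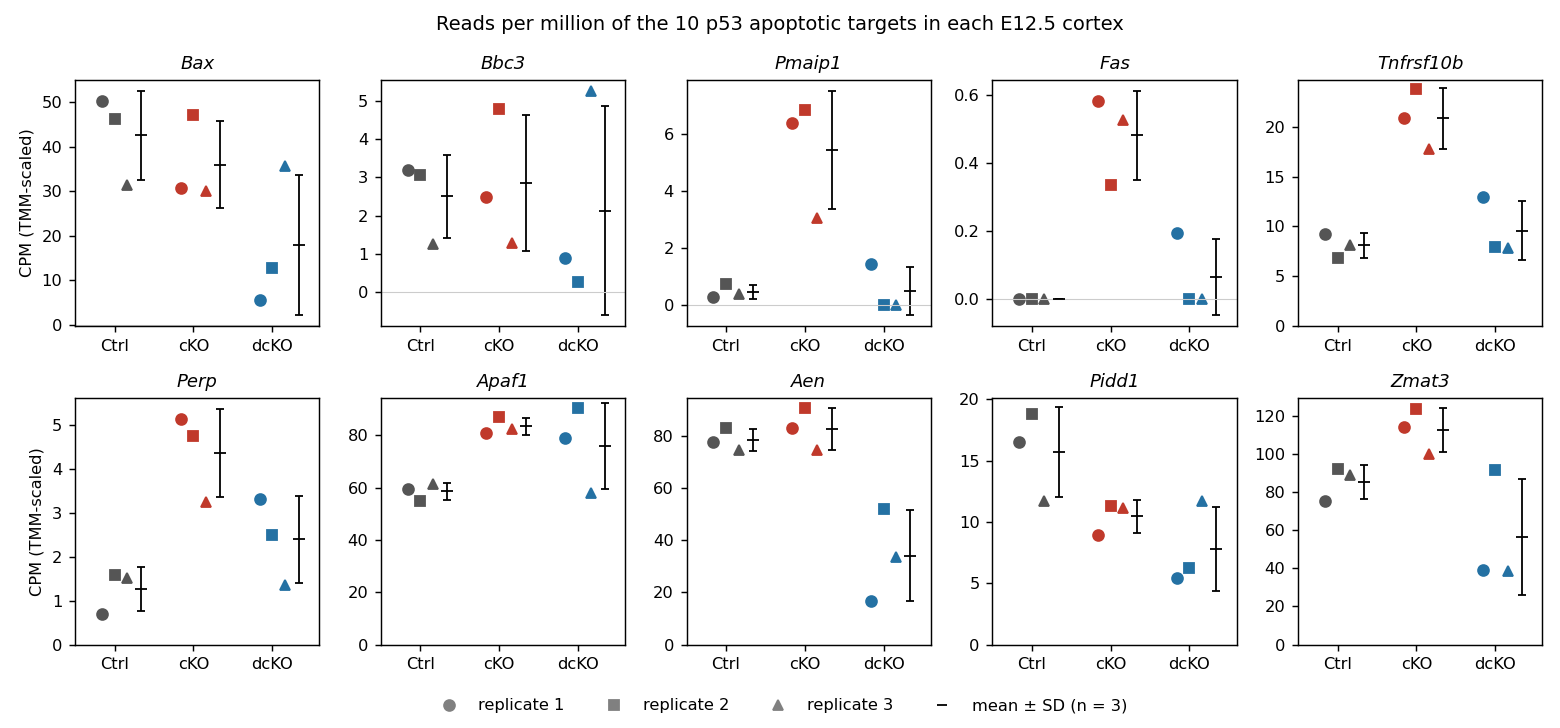
Each panel plots 1 gene, with the genotype on the x axis and CPM on a linear y axis; symbols are the embryos (replicates 1 to 3) and black bars the mean ± SD (n = 3). The cKO embryos sit above all controls for Pmaip1, Fas, Tnfrsf10b, Perp, Apaf1 and Zmat3, and the dcKO embryos are widely spread for Bax, Bbc3, Aen and Zmat3.

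Per kilobase of exon, Bax was the most abundant member in Ctrl at 27.0 ± 6.32 CPM per kb (SD, n = 3), followed by Aen at 13.5 ± 0.732. Zmat3 (7.48 ± 0.776) and Apaf1 (6.49 ± 0.364) came next and overlapped each other. Pidd1 followed at 3.47 ± 0.808, then Tnfrsf10b at 1.48 ± 0.221 and Bbc3 at 1.18 ± 0.508, which overlapped. Perp (0.648 ± 0.254, overlapping Bbc3), Pmaip1 (0.170 ± 0.0900) and Fas (0) were the least abundant, so the control cortex held much mRNA of Bax and little of the receptors and BH3-only proteins. In cKO, Tnfrsf10b stood at 3.82 ± 0.554 CPM per kb and Pmaip1 at 1.99 ± 0.757, while Bax was still first at 22.8 ± 6.17. These levels use exon lengths of GENCODE M21 on GRCm38, and 12.2% of the exon bases of Bax are shared with an overlapping gene on the same strand, Gm45808.

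The reference promoters of 6 members (RefSeq, GRCm38.p6; 250 bases before to 50 after each gene's start) were searched for the p53 decamer, the unit that p53 response elements repeat in tandem. No result is given for the promoters of Pmaip1, Tnfrsf10b, Perp and Zmat3. The decamer reads the same on both strands, and 8.36% of 32851 promoter windows of this length hold it. It occurred once in the window of Bax and once in each of the 2 overlapping windows of Aen, and not in those of Bbc3 (3 windows), Fas, Apaf1 and Pidd1. None of the windows of these 6 members held the full element of 2 decamers with a short spacer, which 24 of the 32851 windows hold. The sequences of Bax, Aen and Fas are shown because Bax and Aen carry the match while their levels overlapped between Ctrl and cKO, and Fas carries none while its reads came from 4 mutant embryos and no control. They run 5′ to 3′ on the strand of the gene, with the decamer in capitals.
Bax, chr7:45466849-45467148, minus strand: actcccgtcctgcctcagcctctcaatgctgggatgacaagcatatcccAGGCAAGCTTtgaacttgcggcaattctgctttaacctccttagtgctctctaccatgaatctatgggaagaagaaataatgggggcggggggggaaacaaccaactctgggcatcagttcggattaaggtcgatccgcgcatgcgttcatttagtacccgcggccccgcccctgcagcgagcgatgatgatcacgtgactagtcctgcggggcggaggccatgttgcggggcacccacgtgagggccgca
Aen, chr7:78895808-78896107, plus strand: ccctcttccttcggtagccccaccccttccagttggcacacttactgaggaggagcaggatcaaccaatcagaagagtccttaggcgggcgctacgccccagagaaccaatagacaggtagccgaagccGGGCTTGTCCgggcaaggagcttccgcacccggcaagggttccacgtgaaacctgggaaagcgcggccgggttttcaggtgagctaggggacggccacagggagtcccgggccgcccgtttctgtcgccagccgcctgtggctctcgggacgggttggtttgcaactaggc
Fas, chr19:34290409-34290708, plus strand: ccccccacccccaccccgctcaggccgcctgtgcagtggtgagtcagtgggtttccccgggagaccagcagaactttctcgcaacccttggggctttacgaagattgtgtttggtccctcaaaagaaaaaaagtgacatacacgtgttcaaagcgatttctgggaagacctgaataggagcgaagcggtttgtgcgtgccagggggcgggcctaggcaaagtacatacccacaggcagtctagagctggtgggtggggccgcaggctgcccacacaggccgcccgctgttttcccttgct
The decamer begins at position -201 from the start in Bax and at -121 in the window of Aen that is shown. A match is a run of letters and not a measured binding site, and its absence from a window says nothing of elements elsewhere in the gene.

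Of the members with reads in Ctrl, Pmaip1 had the highest fold change in cKO. The gene (ENSMUSG00000024521, chromosome 18) had 7, 15 and 10 reads in Ctrl replicates 1, 2 and 3, and 175, 184 and 81 in cKO. In CPM these were 0.285, 0.744 and 0.361 against 6.38, 6.84 and 3.05, an 11.7-fold difference of the means with no overlap. dcKO replicate 1 had 52 reads (1.44 CPM), and replicates 2 and 3 had 0. Pmaip1 did not pass the filter of more than 10 reads in every embryo, so its test comes from the fit to all 26872 genes with a read. There its log2 fold change in cKO was 3.50 (SE 1.06, edgeR adjusted p = 0.0684), and DESeq2 gave an adjusted p of 0.171. With only the 6 Ctrl and cKO embryos in the model, edgeR called it higher (adjusted p = 1.17e-15). Against cKO, its log2 fold change in dcKO was -3.47 (SE 1.04, edgeR adjusted p = 0.780), with edgeR calls without dcKO replicate 3 (-2.93, adjusted p = 0.000632) and without dcKO replicate 1, the dcKO embryo with reads (adjusted p = 0.00357). On all 9 embryos edgeR called it lower with G+C offsets (-3.61, adjusted p = 0.0494) and with these and the replicate block (-4.39, adjusted p = 0.00452). The edgeR call in cKO against Ctrl was also made without any 1 dcKO embryo (adjusted p from 1.10e-06 to 0.00571) and without Ctrl replicate 2 (0.0179). Without Ctrl replicate 1 or 3, or any 1 cKO embryo, Pmaip1 was not called (edgeR adjusted p from 0.0567 to 0.198).

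Bbc3, the other BH3-only member (ENSMUSG00000002083, chromosome 7 from 16308393 to 16318205 of GRCm38), behaved differently. It had 78, 62 and 35 reads in Ctrl, 68, 129 and 34 in cKO, and 32, 10 and 127 in dcKO. Its levels in cKO overlapped those of Ctrl, with 2.48, 4.80 and 1.28 CPM against 3.18, 3.07 and 1.26. The log2 fold change was 0.13 (SE 0.77) in cKO against Ctrl and -0.32 (SE 0.77) in dcKO against Ctrl (edgeR adjusted p = 0.985 and 0.885). With G+C offsets these were 0.91 (SE 0.54) and 0.25 (SE 0.54), with edgeR adjusted p of 0.381 and 0.873. dcKO replicate 3 was the highest of all 9 embryos at 5.26 CPM and replicate 2 the lowest at 0.255. Without dcKO replicate 3, edgeR called Bbc3 lower in dcKO, at a log2 fold change of -2.21 against Ctrl (adjusted p = 0.00740) and -2.35 against cKO (adjusted p = 0.00771). Bbc3 has the highest G+C content of the members (65.2%), and these dcKO libraries are those with the highest and the lowest G+C difference. The part of base composition in the values of Bbc3 was not tested.

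Bax (ENSMUSG00000003873, chromosome 7 from 45461697 to 45466898) was also not separated in cKO. It was at 50.1, 46.2 and 31.3 CPM in Ctrl and at 30.7, 47.1 and 30.0 CPM in cKO. In dcKO it was at 5.50, 12.7 and 35.6 CPM, so replicates 1 and 2 lay below all controls and replicate 3 among them. The log2 fold change was -0.24 (SE 0.54) in cKO against Ctrl (edgeR adjusted p = 0.803) and -1.25 (SE 0.55) in dcKO against Ctrl (edgeR adjusted p = 0.162, DESeq2 adjusted p = 0.0716). Without dcKO replicate 3 edgeR called Bax lower in dcKO, at -2.22 against Ctrl (adjusted p = 0.00111) and -1.98 against cKO (adjusted p = 0.0140). The exons of Bax are 63.5% G+C. With loess offsets for the G+C content of each gene, the log2 fold change turned to 0.69 in cKO (edgeR adjusted p = 0.0736) and shrank to -0.30 in dcKO (edgeR adjusted p = 0.441). The low Bax values of dcKO came from replicates 1 and 2, the 2 libraries with the largest deficit of G+C-rich genes. The part of this deficit in these values was not tested.

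Of the death receptors, Tnfrsf10b (ENSMUSG00000022074, chromosome 14 from 69767472 to 69784411) gave the firmest difference. It was at 9.26, 6.84 and 8.15 CPM in Ctrl, at 20.9, 23.8 and 17.8 CPM in cKO and at 12.99, 7.92 and 7.78 CPM in dcKO. Every cKO embryo was above every other embryo, the means of cKO and Ctrl differed 2.58-fold, and dcKO replicates 2 and 3 lay within the range of the controls. In cKO against Ctrl the log2 fold change was 1.36 (SE 0.29). The edgeR adjusted p was 0.0509 in the model of 9 embryos and 0.000286 with only the 6 compared, and DESeq2 called Tnfrsf10b higher at an adjusted p of 0.000311. In dcKO against cKO it was -1.12 (SE 0.28), with an edgeR adjusted p of 0.748, and DESeq2 called it lower (adjusted p = 0.0277), a call lost with only the 6 embryos compared (DESeq2 adjusted p = 0.320) and with the replicate block (0.0698). edgeR also called it higher in cKO against Ctrl without any 1 dcKO embryo (adjusted p from 0.00594 to 0.0137). With any 1 Ctrl or cKO embryo left out it was not called (edgeR adjusted p from 0.130 to 0.211), and neither was any other gene tested. Between embryos that share the number in their code, the log2 CPM of cKO minus Ctrl was 1.36 and 1.38, and that of dcKO replicate 3 minus Ctrl replicate 3 was -0.066. What the code number stands for is not given in the sources used here.

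Fas (ENSMUSG00000024778, chromosome 19 from 34290666 to 34327772) had 0 reads in all 3 controls. It had 16, 9 and 14 reads in cKO, and 7, 0 and 0 in dcKO. Taking 3 reads, the limit that a count of 0 allows, in each control library, the mean of cKO (0.482 CPM) was at least 3.81-fold higher. The edgeR adjusted p, from the fit to all genes with a read, was 0.134 for cKO against Ctrl, and 0.00413 with only the 6 embryos compared. It was 0.0351 without dcKO replicate 2, 0.0309 without dcKO replicate 3, and from 0.0992 to 0.326 without any other single embryo. DESeq2 gave no adjusted p in the model of 9 embryos. The limit of 3 reads covers counting error only. The 7 markers of microglia and macrophages summed to 41.9 to 51.3 CPM in Ctrl, to 67.1, 93.0 and 42.9 in cKO and to 24.2, 15.8 and 38.3 in dcKO. cKO replicate 3 had 14 reads of Fas at a marker sum within the control range, and the part of these cells in the reads of Fas was not tested.

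Perp (ENSMUSG00000019851, chromosome 10 from 18845020 to 18857073) was at 0.693, 1.59 and 1.51 CPM in Ctrl and at 5.14, 4.76 and 3.24 CPM in cKO, a 3.46-fold difference of the means. In dcKO it was at 3.33, 2.50 and 1.37 CPM, so replicates 1 and 2 lay above all controls. The log2 fold change in cKO against Ctrl was 1.79 (SE 0.46). The edgeR adjusted p was 0.0575 in the model of 9 embryos and 0.00282 with the 6 compared, and DESeq2 called Perp higher (adjusted p = 0.00506). edgeR also called it in cKO without any 1 dcKO embryo (adjusted p from 0.0105 to 0.0333). With any 1 Ctrl or cKO embryo left out Perp was not called (edgeR adjusted p from 0.136 to 0.217). The log2 fold changes below are those of the model of 9 embryos unless an embryo is named as left out. In dcKO against Ctrl it was 0.93 (SE 0.45, edgeR adjusted p = 0.200), or 1.21 without dcKO replicate 3 (edgeR adjusted p = 0.0394), and in dcKO against cKO it was -0.86 (SE 0.44, edgeR adjusted p = 0.889). Perp is also a component of the junctions of stratified epithelia. The 7 surface epithelium markers summed to 2.12 to 2.78 CPM in Ctrl, to 14.9 to 23.0 in cKO and to 22.7, 2.12 and 24.4 in dcKO, mainly from Krt8, Krt18 and Epcam. Krt14 had no read in any mutant embryo and Krt15 none in Ctrl or cKO. In dcKO replicate 1, which had the highest Perp of its genotype, Krt5 had 17 reads and Krt15 had 2. The dcKO embryo with the highest sum, replicate 3, had the lowest Perp of its genotype, and the part of epithelial cells in the level of Perp was not tested.

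Apaf1 and Zmat3 differed less in size but were separated in cKO. Apaf1 (ENSMUSG00000019979, chromosome 10 from 90989311 to 91082770) was at 59.4, 55.0 and 61.4 CPM in Ctrl, at 80.8, 87.0 and 82.5 in cKO and at 79.0, 90.6 and 58.1 in dcKO. The cKO mean was 1.42-fold that of Ctrl. Of the dcKO embryos, replicate 1 lay between Ctrl and cKO, replicate 2 above all cKO embryos and replicate 3 within the controls. Its log2 fold change was 0.51 (SE 0.18) in cKO against Ctrl and 0.37 (SE 0.18) in dcKO against Ctrl, with edgeR adjusted p of 0.115 and 0.204. With only the 6 embryos compared the value in cKO passed the threshold on p (edgeR adjusted p = 0.00107) and stayed under the limit on the fold. In dcKO against cKO the log2 fold change of -0.14 (SE 0.18) was within its error.

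Zmat3 (ENSMUSG00000027663, chromosome 3 from 32334792 to 32366014) was at 75.5, 92.3 and 88.8 CPM in Ctrl and at 114, 123 and 100.1 CPM in cKO. In dcKO it was at 39.0, 91.5 and 38.6 CPM. Replicate 2 lay within the controls while the other 2 lay below them. That library kept the most Trp53 of its genotype, and it also had the largest deficit of G+C-rich genes (-2.13) and the subpallial reads, whose part in this value was not tested. The exons of Zmat3 are 47.6% G+C, and with G+C offsets its log2 fold change in dcKO against Ctrl was -0.83 (edgeR adjusted p = 0.103). The log2 fold change was 0.40 (SE 0.31) in cKO against Ctrl, -0.60 (SE 0.31) in dcKO against Ctrl and -0.998 (SE 0.31) in dcKO against cKO, with edgeR adjusted p of 0.437, 0.224 and 0.889. Leaving out dcKO replicate 2 changed the calls of dcKO. Without that embryo Zmat3 was called lower in dcKO against Ctrl at a log2 fold change of -1.14 (edgeR adjusted p = 0.00456) and in dcKO against cKO at -1.54 (edgeR adjusted p = 0.0257).

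Aen (ENSMUSG00000030609, chromosome 7 from 78895854 to 78911209) was the member that was lower in every dcKO embryo than in every embryo of both other genotypes. It was at 77.7, 83.0 and 74.6 CPM in Ctrl, at 83.0, 90.7 and 74.5 CPM in cKO and at 16.7, 51.9 and 33.8 CPM in dcKO. In each cKO embryo its level was within 1.16-fold of the control mean, with a log2 fold change of 0.077 (SE 0.32, edgeR adjusted p = 0.899). In dcKO against Ctrl the log2 fold change was -1.20 (SE 0.33, edgeR adjusted p = 0.0610), and DESeq2 called Aen lower (adjusted p = 0.00893). edgeR did so without dcKO replicate 2 (-1.64, adjusted p = 0.00741) and without dcKO replicate 3 (-1.19, adjusted p = 0.0190). In dcKO against cKO it was -1.28 (SE 0.33), with an edgeR adjusted p of 0.762 and a DESeq2 adjusted p of 0.0658, and edgeR called it lower without dcKO replicate 3 (-1.27, adjusted p = 0.0297). The highest dcKO value was that of replicate 2. In dcKO replicate 3, the library without a deficit of G+C-rich genes, the log2 CPM of Aen minus that of the control with the same code number was -1.14.

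Pidd1 (ENSMUSG00000025507, chromosome 7 from 141438113 to 141444025) was at 16.6, 18.8 and 11.7 CPM in Ctrl, at 8.90, 11.3 and 11.2 CPM in cKO and at 5.41, 6.21 and 11.7 CPM in dcKO. It was the only member lower in every cKO embryo than in every control. Its log2 fold change was -0.58 (SE 0.34, edgeR adjusted p = 0.295) in cKO and -1.01 (SE 0.34, edgeR adjusted p = 0.0923) in dcKO, where DESeq2 called it lower (adjusted p = 0.0223). Without dcKO replicate 3 the value in dcKO was -1.43 and edgeR called it (adjusted p = 0.00231). Its exons are 57.2% G+C, and with G+C offsets the values were -0.20 in cKO and -0.42 in dcKO (edgeR adjusted p = 0.548 and 0.261).

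Over the members together, edgeR's model of all 9 embryos called 0 in each of the 3 comparisons, where a call needs a Benjamini-Hochberg adjusted p under 0.05 and a log2 fold change beyond 1 in size. Of the 10 members, 7 had more than 10 reads in every embryo and were tested. The same model called 0.0146% of 13680 genes higher and 0% lower in cKO, 0% either way in dcKO against Ctrl, and 0% higher and 0.0146% lower in dcKO against cKO. At an unadjusted p under 0.05 with no limit on the fold, 3 of the 7 were higher in cKO (Tnfrsf10b, Perp and Apaf1) against 15.3% of genes. For dcKO against Ctrl 3 were lower (Bax, Aen and Pidd1) against 11.2%, and in dcKO against cKO 3 were lower (Tnfrsf10b, Aen and Zmat3) against 2.38%. DESeq2 called Tnfrsf10b and Perp higher in cKO (2 of 7, against 4.94% of genes), Aen and Pidd1 lower in dcKO against Ctrl (2 of 7, 3.79%) and Tnfrsf10b lower in dcKO against cKO (1 of 7, 0.351%). In the opposite directions DESeq2 called 0 members, with 3.87%, 4.66% and 0.0292% of genes. In edgeR with the 6 embryos compared, Tnfrsf10b and Perp were higher in cKO (2 of 7, 6.91%), as were Pmaip1 and Fas in the fit to genes with a read (2 of the 3 members tested only there, 5.46%). Without the filter, edgeR on all 9 embryos called Tnfrsf10b higher in cKO (1 of 10, 1.44%) and Aen lower in dcKO (1 of 10, 1.41%), and with upper-quartile factors Tnfrsf10b in cKO (1 of 7, 2.42%). limma voom with sample weights called Tnfrsf10b and Perp higher in cKO (2 of 7, 7%). For dcKO against Ctrl it called Bax, Aen, Pidd1 and Zmat3 lower (4 of 7, 15.9%) and Perp higher (1 of 7, 10.9%), and in dcKO against cKO it called Aen and Zmat3 lower (2 of 7, 0.175%). The median log2 fold change of the 7 was 0.40 in cKO against Ctrl, with 0.0098 over all genes tested. It was -0.60 in dcKO against Ctrl (all genes 0.11) and -0.998 in dcKO against cKO (all genes 0.067), where all 7 were below 0. With G+C offsets the medians were 0.26, -0.30 and -0.993, and with the embryo code number as a block, where only dcKO replicate 3 and its control carry the contrast, that of dcKO against Ctrl was -0.079.

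**Figure D2:**
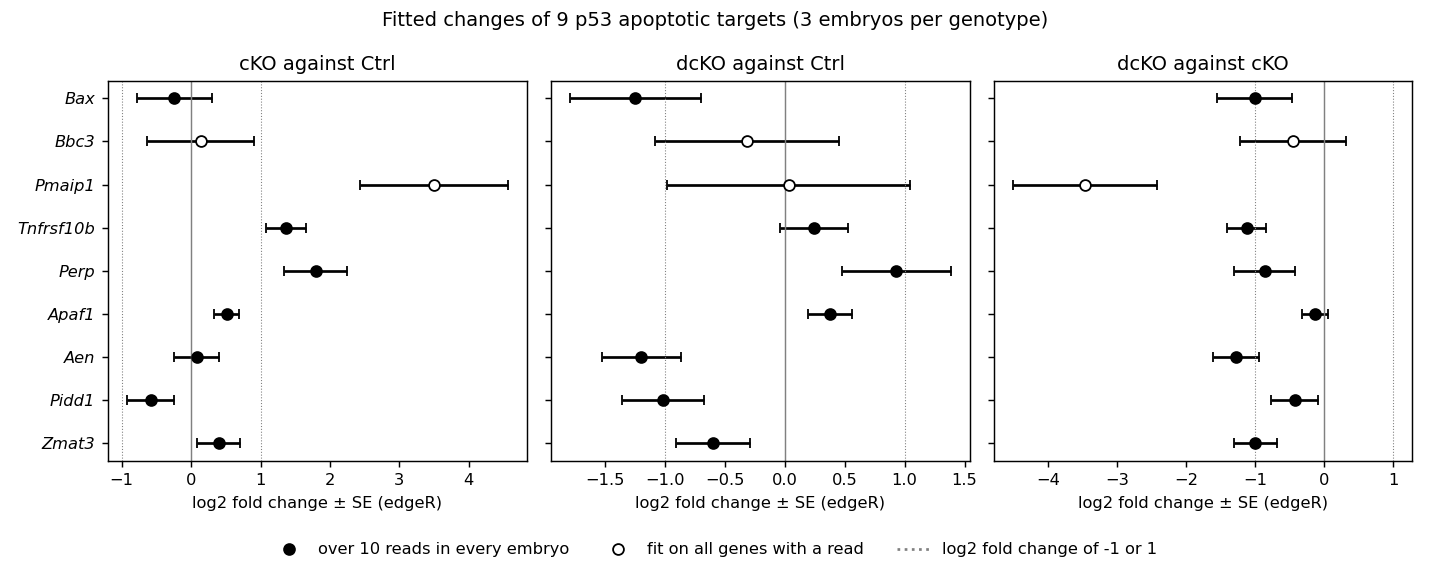
Points give the fitted log2 fold change of each member on the x axis, with bars of ± 1 SE from edgeR, for the 3 comparisons (3 embryos per genotype; the x axes differ in range); open points come from the fit to all genes with a read. Fas is left out because its controls are at 0 reads. Pmaip1, Perp and Tnfrsf10b lie furthest to the right in cKO, and the bars of Bbc3 cross 0 in every comparison.

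The members differed by base composition as well as by role. In cKO the 4 members richest in G+C (Bbc3, Bax, Pidd1 and Aen, 51.6% to 65.2%) were those without a higher level in every embryo, and the 6 poorest, from Pmaip1 at 42.1% to Tnfrsf10b at 48.9%, were those with one. G+C offsets lowered the log2 fold change of Tnfrsf10b in cKO from 1.36 to 1.22 and that of Perp from 1.79 to 1.61, and edgeR then called both higher (adjusted p = 0.0307 and 0.0400, 3% of 13561 genes). They lowered Apaf1 from 0.51 to 0.26 and Zmat3 from 0.40 to 0.20. dcKO replicate 3 had no deficit of G+C-rich genes and lay near the control with which it shares its code number for Bax, Tnfrsf10b, Perp, Apaf1 and Pidd1, where log2 CPM differed by between -0.14 and 0.19. In the same embryo the difference of Bbc3 was 2.04 (127 against 35 reads), that of Zmat3 was -1.20 and that of Aen -1.14, and Pmaip1 had 0 reads against 10.

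**Figure D3:**
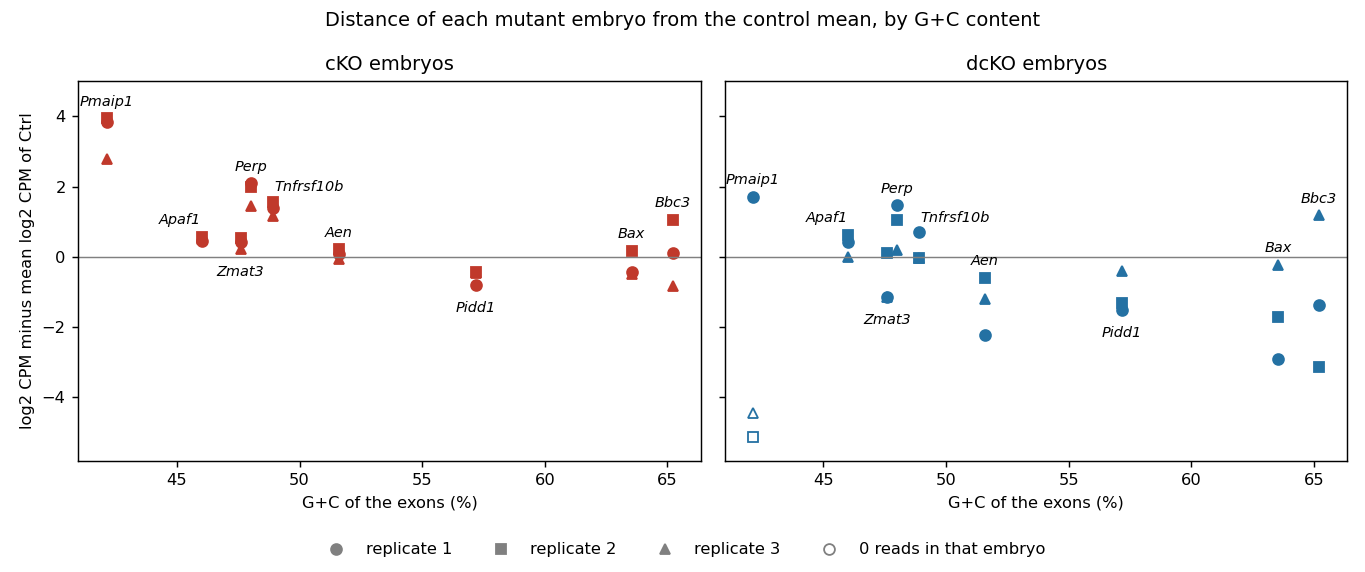
The x axis is the G+C content of a member's exons in percent and the y axis the log2 CPM of each mutant embryo minus the mean log2 CPM of Ctrl; each symbol is 1 embryo, open where it had 0 reads, and Fas is left out. In cKO all values of Pmaip1, Apaf1, Zmat3, Perp and Tnfrsf10b lie above 0 and those of Pidd1 below, and in dcKO replicates 1 and 2 lie below replicate 3 for Bax, Bbc3 and Pidd1.

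Other p53 targets were described the same way, with edgeR's fold changes and SEs beside the calls of either tool. Of 15 genes for arrest and feedback, DESeq2 called 5 higher in cKO (4.94% of genes): Cdkn1a, the inhibitor of cyclin-dependent kinases (log2 fold change 2.46, SE 0.38), Ccng1 (2.39, SE 0.35), Phlda3, an inhibitor of AKT signalling (1.90, SE 0.28), Trp53inp1 (1.39, SE 0.32) and Plk2 (1.34, SE 0.27). The lowest was Mdm4, a partner of MDM2 that restrains p53, at -0.42 (SE 0.31), and the median of the list was 0.43. Of 15 genes for stress, metabolism and repair, DESeq2 called 4 higher (Eda2r, Gls2, Sesn2 and Ddit4), of which edgeR called Eda2r, a receptor of the TNF family, at 4.22 (SE 0.43, adjusted p = 0.0232), and the median was 0.81. Gls2, a mitochondrial glutaminase, was at 1.88 (SE 0.41), Sesn2 at 1.77 (SE 0.49) and Ddit4, both inhibitors of mTORC1 signalling, at 1.15 (SE 0.36), and the lowest was Fdxr at -0.16. In dcKO against cKO the medians of these lists were -0.039 and -0.18. Phlda3 at -3.08 (SE 0.30) and Eda2r at -3.98 (SE 0.42) were their lowest and were called by edgeR (adjusted p = 0.0130 and 0.0168). DESeq2 also called Cdkn1a (-2.25, SE 0.38), Sesn2 (-2.16, SE 0.50), Ccng1 (-2.08, SE 0.34) and Plk2 (-1.19, SE 0.27) lower there, and the highest of the lists were Mdm4 at 0.69 (SE 0.31) and Rrm2b at 0.25. Against Ctrl, DESeq2 called Phlda3 lower in dcKO (-1.18, SE 0.28), and Gls2 (1.72, SE 0.41) and Ddit4 (1.11, SE 0.36) higher. The pattern of the 7 tested members over the 9 embryos, taken as the mean of their standardised log2 CPM, was most like that of Susd6 (Pearson r = 0.933), Phlda3 (0.921), Acp5 (0.916), Cpt1a (0.905) and Adgrg3 (0.902), as a description over embryos of 3 genotypes.

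Partners of the members were counted in the same way. Among 4 pro-survival BCL2 genes tested, DESeq2 called 1 lower in cKO (3.87% of genes), Bcl2 at a log2 fold change of -1.01 (SE 0.33, DESeq2 adjusted p = 0.0275). Bcl2l1 was at -0.34 (SE 0.23) in cKO and -0.76 (SE 0.23) in dcKO against Ctrl, Bcl2l2 at 0.36 (SE 0.25) and Mcl1 at 0.28 (SE 0.24) in cKO, and Bcl2a1b had too few reads to test. Of 7 other pro-apoptotic members of the family, Bok, a relative of Bax, was called lower by DESeq2 in cKO (-1.37, SE 0.31) and in dcKO against Ctrl (-1.38, SE 0.31), and Hrk, a BH3-only gene, in cKO (-1.10, SE 0.31). These are 2 of 7 in cKO (3.87% of genes) and 1 of 7 in dcKO (3.79%). Bid was at 0.97 (SE 0.43) and Bak1, the other pore former, at -0.12 (SE 0.37) in cKO, neither called.

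Of 6 death receptor ligand and adaptor genes tested, DESeq2 called 1 higher in each mutant against Ctrl (4.94% and 4.66% of genes), Casp8, the caspase that Fas and Tnfrsf10b recruit. It was at 8.11, 6.05 and 7.82 CPM in Ctrl, at 20.2, 16.7 and 18.1 in cKO and at 28.8, 12.6 and 15.4 in dcKO, so every mutant embryo lay above every control. Its log2 fold changes were 1.32 (SE 0.33, DESeq2 adjusted p = 0.00313) in cKO and 1.37 (SE 0.33, DESeq2 adjusted p = 0.0024) in dcKO, and 0.050 (SE 0.32) between the mutants. Fadd, the adaptor, was at 0.28 (SE 0.31) in cKO, the ligand gene Fasl had 0 reads in every embryo, and Tnfsf10, the TRAIL gene, had 6 reads in Ctrl replicate 3, 4 and 14 in cKO replicates 1 and 2, and 0 elsewhere. None of the 10 apoptosome and caspase genes was called by edgeR or DESeq2 in any comparison. At an unadjusted edgeR p under 0.05 there were 0 in cKO against Ctrl, 0 in dcKO against cKO and 1 in dcKO against Ctrl, Diablo, whose product frees caspases from their inhibitors (0.77, SE 0.33), at a threshold that 15.3% of genes passed as higher and 11.7% as lower in cKO, and 18% as higher in dcKO against Ctrl. For dcKO against cKO these shares were 2.05% and 2.38%. Casp9, which Apaf1 activates, was at 0.013 (SE 0.21) in cKO and Cycs, the cytochrome c gene, at -0.70 (SE 0.47). Casp2 and Cradd, the partners of Pidd1, were at -0.0036 (SE 0.18) and -0.011 (SE 0.26), and Casp6 was the highest of the 10 at 0.48 (SE 0.26). In dcKO against cKO they ran from Htra2 at -0.19 (SE 0.46) to Diablo at 0.63 (SE 0.33).

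**Figure D4:**
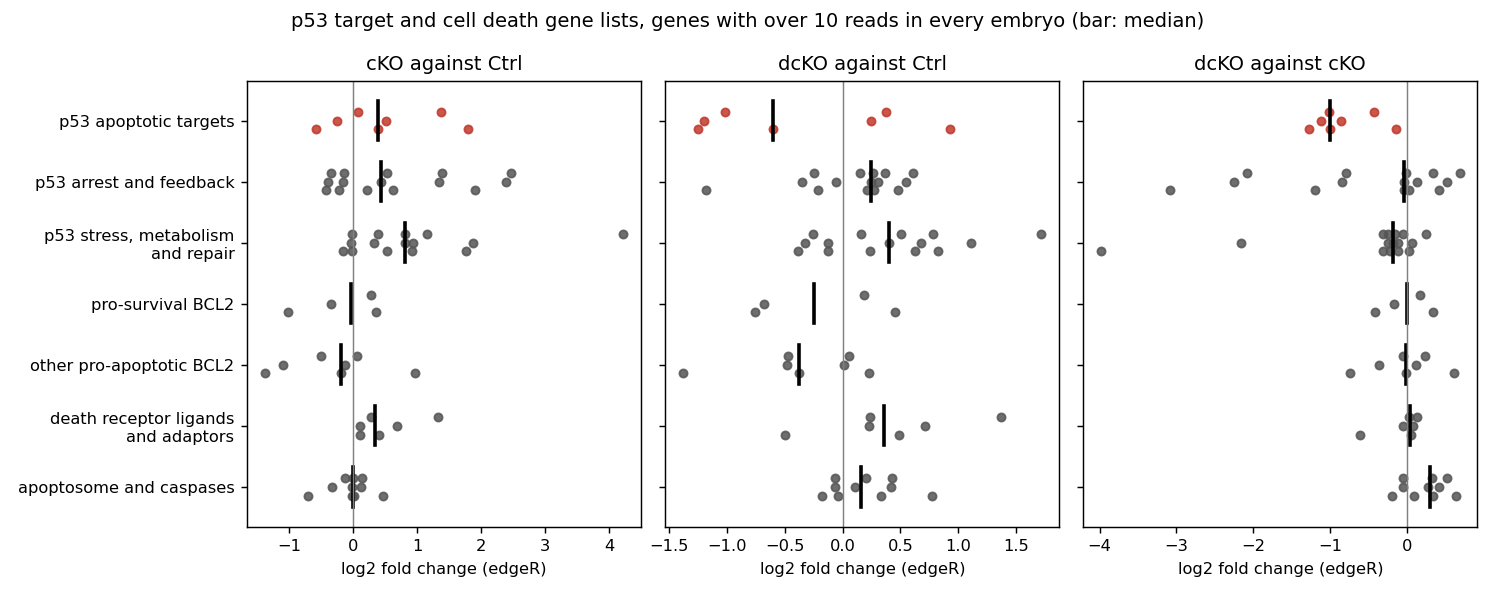
Each point is 1 gene with more than 10 reads in every embryo, placed by its edgeR log2 fold change on the x axis (the ranges differ) for the 3 comparisons; black bars are medians of each list. The 7 tested apoptotic targets, in red, have medians of 0.40, -0.60 and -0.998. In cKO against Ctrl the apoptosome and caspase list has a median of -0.007 and runs from -0.70 (Cycs) to 0.48 (Casp6).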

How the data were processed

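Cortical RNA of 9 single E12.5 embryos had been sequenced as stranded poly(A) libraries on an Illumina NovaSeq with paired ends. Per the labels and the study's methods, the authors checked reads with FastQC, trimmed them with Cutadapt, aligned them to mm39 with STAR and deposited whole-number read counts per Ensembl gene from featureCounts, with no normalization. Groups came from the labels, and p-values measure the spread between embryos. Of 57010 genes, 30138 had no read and 13680 had more than 10 reads in every embryo. edgeR 4.0.16 (R 4.3.3) was fitted to these with TMM factors, all 9 embryos and no covariate, by its quasi-likelihood test with Benjamini-Hochberg adjustment. Bbc3, Pmaip1 and Fas were taken from the same fit to the 26872 genes with a read. Exact permutation tests used log2 CPM with a prior count of 0.5. Alternatives were DESeq2 1.42.0 and limma 3.58.1 (voom), other factors and filters, fewer embryos, blocks, and loess offsets (span 0.3) for exon G+C. Exon G+C content was that of each gene's longest transcript, while exon length was taken over all exons of the gene. The scripts were tested on simulated counts. Gene positions and lengths came from GENCODE M21 on GRCm38, matched by identifier, since no mm39 annotation was used here, and Python 3.11.15 with SciPy 1.17.1 was used for summaries. All 10 members are named, with the genes of the fixed p53 target and cell death lists that edgeR or DESeq2 called, and the role partners of members. The highest and lowest genes are named for most of these lists, and only some of the called marker genes are named. The members and all lists were chosen with earlier results of these data known. 1 gene of the lists is not reported here.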

Additional observations from a re-analysis of the deposited data

How the results depend on the processing

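Counts here are of the 7 members with more than 10 reads in every embryo, except without the filter, where all 10 count. In cKO against Ctrl, where edgeR called 0 members higher, the count was 1 with upper-quartile factors and without the filter. It was 2 by DESeq2, by limma voom, with the 6 embryos compared (edgeR and DESeq2), with G+C offsets, with the embryo code number as a block and at an adjusted p under 0.1, and 3 at an unadjusted p under 0.05 with no limit on the fold, a threshold chosen after seeing the data that changes both parts of the call and is also used for the other comparisons. Leaving out single embryos gave 0 to 2. In dcKO against Ctrl 1 member was called higher by voom, and 0 to 1 with single embryos left out. Lower counts were 1 without the filter and by DESeq2 with 6 embryos, 2 by DESeq2, with the code block and at an adjusted p under 0.1, 3 at an unadjusted p under 0.05, 4 by voom, and 0 to 3 with single embryos left out. In dcKO against cKO they were 1 by DESeq2, 2 by voom, 3 with the code block and at an unadjusted p under 0.05, and 0 to 2 with single embryos left out. The counts and calls in dcKO with the code block rest on dcKO replicate 3 alone, since the other 2 dcKO embryos share their number with no embryo. With the replicate block in DESeq2, members called were 2 higher in cKO, 3 lower in dcKO against Ctrl and 1 lower in dcKO against cKO, which was Aen and not Tnfrsf10b. Of the 3 members outside these counts, Pmaip1 was also called higher in cKO with upper-quartile factors, by voom, with 6 embryos (edgeR and DESeq2), with G+C offsets with and without the replicate block, with the code block, and without Ctrl replicate 2 or any 1 dcKO embryo. Fas was called there by voom, with 6 embryos, and without dcKO replicate 2 or 3. Lower calls in dcKO were those of Pmaip1 with the code block (against Ctrl and cKO), with G+C offsets with and without the replicate block (against cKO) and without dcKO replicate 1 or 3 (against cKO), and of Bbc3 without dcKO replicate 3 (against both). The replicate number was not treated as pairing, since same-numbered embryos' deviations correlated at -0.537 to 0.126 over all comparisons.

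Log2 fold changes that turned were those of Bax and Bbc3 in cKO, of Pmaip1 and Bbc3 in dcKO, and of several members under the code block. In cKO against Ctrl, Bax was 0.69 with G+C offsets, also with the replicate block, and Bbc3 was 0.91 with G+C offsets, 0.89 with the replicate block as well, -0.093 by voom, -0.34 with the code block and -0.47 to 0.49 with single embryos left out. In dcKO against Ctrl, Pmaip1 was -0.57 by voom, -0.016 with 6 embryos, -1.17 with the replicate block (-2.35 in DESeq2, -1.20 with G+C offsets as well), -0.29 with G+C offsets and -6.69 to 0.68 with single embryos left out. Bbc3 was 0.25 with G+C offsets, 0.30 with the replicate block as well, and -2.21 to 0.23 with single embryos left out. Tnfrsf10b ran from -0.043 to 0.37 and the fitted value of Fas, which is no bound, from 0 to 4.51. The code block gave 0.19 for Bax, 1.97 for Bbc3, -6.43 for Pmaip1, 0 for Fas, -0.066 for Tnfrsf10b, -0.15 for Perp, -0.079 for Apaf1 and 0.0041 for Pidd1, and against cKO 0.54 for Bax, 2.31 for Bbc3 and 0.66 for Pidd1. With single embryos left out, Bbc3 ran from -2.35 to 0.15 and Apaf1 from -0.28 to 0.023 against cKO. The causes were not tested.

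Counts of a few reads limit Fas, Pmaip1, Perp and Bbc3. The members' medians were 0.32 to 0.46, -0.88 to -0.39 and -1.13 to -0.79 in the 3 comparisons with single embryos left out. With G+C offsets they were 0.26, -0.30 and -0.993, by voom 0.36, -1.05 and -0.787, and with the code block 0.41, -0.079 and -1.18. Genes with shared exon bases, as Bax and Gm45808, may share reads.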
